A study of Mus musculus with 4 samples.

Results

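The cells described here are B cells in the blood of the inbred mouse strain SM/J that carried many transcripts of Zcwpw1. They were chosen from counts of unique molecular identifiers (UMIs, each a counted transcript molecule): at least 5 UMIs of Zcwpw1, at least 1 of Cd79a, which encodes a signalling chain of the B cell receptor, and 0 of Cd3e, which encodes a chain of the T cell receptor complex. Of the 11721 cells kept from 12299 deposited, 936 SM/J cells met this rule, 912 of them from mice aged 20 months and 24 from mice aged 12 months. They are called Zcwpw1-high cells. The cells they were set against, called other B cells, had at least 2 Cd79a UMIs and fewer than 5 of Zcwpw1, and numbered 742 at 20 months and 1278 at 12 months. Mononuclear cells came from heart blood of SM/J and BL/6 mice, an inbred strain used here as background, at both ages, over a Lymphoprep density gradient with a slow spin against platelets and lysis of red cells. No treatment or engineered allele is named for either strain. Both ages of a strain were multiplexed in 1 library of the 10x Genomics 3' assay and told apart by tag oligos, and there was no replicate library. The cells of 1 strain and age, deposited together, are called a cell set here. Each cell set carried 3 tags, and an aliquot here means all its cells that share their most abundant tag. The sources used here do not tie a tag to an animal, so aliquots show spread and were given no test. The cells were chosen by expression, so every difference from other B cells below is a description without a p-value.

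B cells recognise antigen through a membrane immunoglobulin made of a heavy chain and a kappa or lambda light chain. Each chain's variable region starts with a V segment that is joined once during development, so daughter cells of 1 B cell share their V segments. Mouse B-1 cells, which make much of the natural IgM, use some V segments far more often than other B cells, and pairs of Ighv11-2 with Igkv14-126 are a known example with affinity for phosphatidylcholine. Zcwpw1 encodes a reader of histone methylation known for its role in meiotic recombination in the testis. Gnb3 encodes a G protein beta subunit, Rdh12 a retinol dehydrogenase of photoreceptors, Krt18 an epithelial keratin and Meis1 a homeobox transcription factor.

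Depth and background were examined before any comparison. The 912 Zcwpw1-high cells at 20 months had a median of 13066 UMIs and 3136 genes, against 5392 UMIs and 1844 genes in other B cells. After thinning to 2000 UMIs per cell, which left out 0 Zcwpw1-high and 13 other B cells, the medians were 918 and 928 genes. The leading tag held a median of 82.0% of tag UMIs in Zcwpw1-high cells and 73.3% in other B cells, and the doublet caller Scrublet marked 1.10% and 1.08% of them. No cell barcode was shared between the ages of a strain, and 1 to 3 were shared between pairs of cell sets of different strains. At least 1 Zcwpw1 UMI was seen in 8.57% of 140 T cells (median 4498 UMIs), 4.63% of 561 myeloid cells (median 10097 UMIs) and 12.3% of other B cells of the same cell set. In the summed counts, scaled to a common total and given as CPM (counts per 1000000 UMIs), Zcwpw1 was at 23.4, 4.14 and 34.4 CPM in the same order, so the level differed between cell types, and the part of free RNA in it was not tested. None of these T or myeloid cells had 5 UMIs. All 6 B cell markers were detected, and their summed level reached 11831 CPM in Zcwpw1-high cells and 7566 in other B cells. The 8 T cell markers summed to 5.25 and 40.9 CPM, in the same order, with 1 of 8 at 0 in Zcwpw1-high cells. That gene is Cd3e, which the rule set to 0 in Zcwpw1-high but not in other B cells, so part of this gap was fixed by the choice of cells.

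Zcwpw1-high cells made up 55.1% of SM/J B cells at 20 months (95% interval 52.7 to 57.6, exact Clopper-Pearson) and 1.84% at 12 months (1.18 to 2.73). The share was 59.8%, 52.6% and 53.8% in the 3 aliquots at 20 months, and 1.69%, 2.27% and 1.62% at 12 months. The aliquots of the 2 ages were far apart, and the 20-month cells came from all 3 aliquots in similar shares. In BL/6 blood 2.46% of B cells met the same rule at 12 months (48 cells, 1.82 to 3.25) and 0.809% at 20 months (8 cells, 0.350 to 1.59). The BL/6 aliquots ran from 2.16% to 2.63% and from 0.389% to 1.01%, so cells with 5 Zcwpw1 UMIs were present at a low share in the 3 cell sets other than SM/J at 20 months. Of all kept cells of SM/J at 20 months the Zcwpw1-high cells were 33.7%, and they held 52.2% of its UMIs. The intervals cover counting error only, and animals were not resolved. The rule needs several molecules of 1 gene, so deep cells pass more easily; with each cell thinned to 2000 UMIs and 1 Zcwpw1 UMI required, the shares were 52.3% at 20 months and 3.64% at 12 months.

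**Figure D1:**
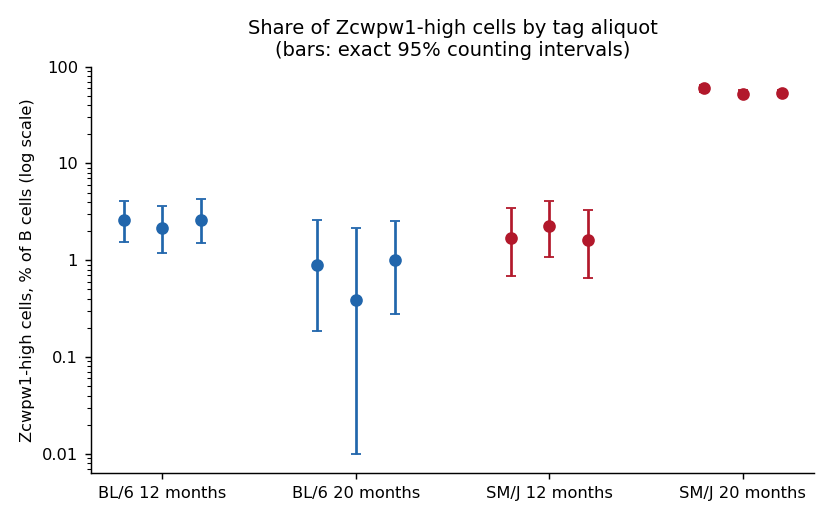
Share of Zcwpw1-high cells among B cells (vertical axis, percent, log scale) in the 3 tag aliquots of each strain and age, with exact 95% counting intervals as bars. The SM/J aliquots at 20 months lie at 52.6% to 59.8% and all other aliquots at 2.63% or below.

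Counts of Zcwpw1 in single cells fell into 2 ranges at 20 months. Of the SM/J B cells of that age, 39.4% had 0 Zcwpw1 UMIs, 19.9% had 10 to 19 and 21.8% had 20 to 39. Only 12 cells had 3 UMIs and 12 had 4, while 16 had 5 and 13 had 6, so few cells lay near the threshold. Cells just outside it resembled those just inside in some other markers: Gnb3 stood at 39.4 and 100 CPM in cells with 3 and 4 Zcwpw1 UMIs, and at 108 and 149 CPM in cells with 5 and 6. Of 923 cells with 5 or more Zcwpw1 UMIs, 11 were left out for a Cd3e UMI and 0 for lack of Cd79a.

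**Figure D2:**
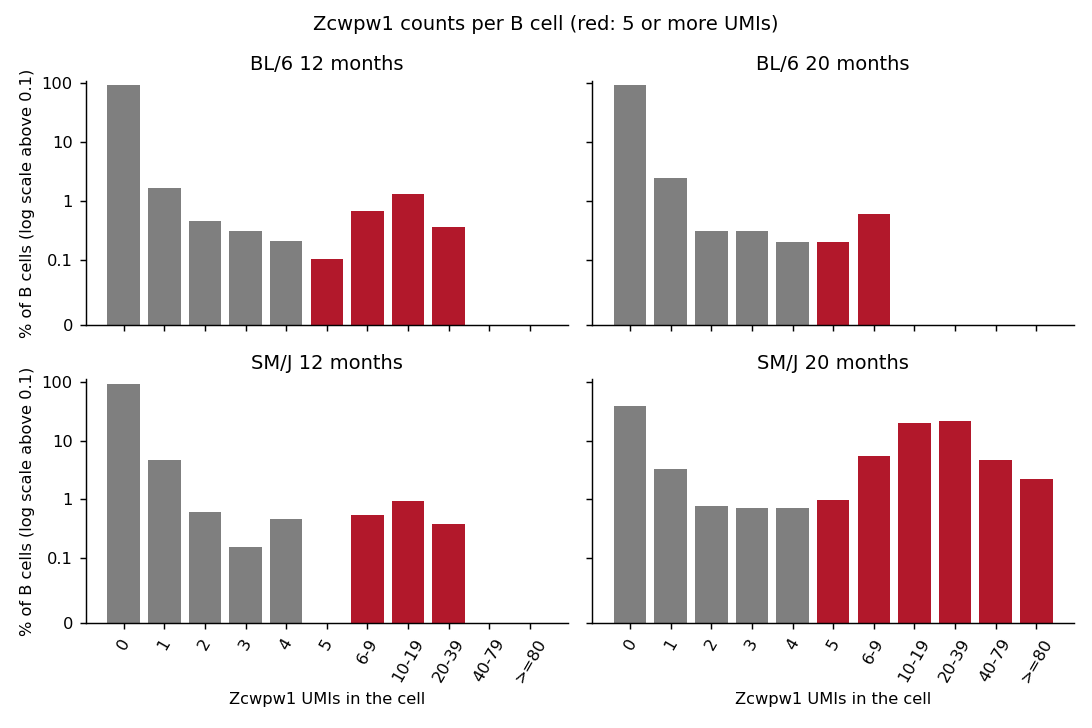
Percent of B cells (vertical axis, log scale above 0.1) by the number of Zcwpw1 UMIs in the cell (horizontal axis, binned) in the 4 cell sets, with 5 or more UMIs in red. In SM/J at 20 months most cells are either at 0 or in the bins from 10 to 39, with 0.726% of cells at 3 and 0.726% at 4 UMIs.

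A 3' assay reads little of the receptor, because V segments lie at the far end of the transcript. A leading segment was called where 1 segment had at least 3 UMIs and more than 50% of its class in the cell. By this measure 464 of the 912 Zcwpw1-high cells (50.9%) had a leading kappa V segment and 148 (16.2%) a leading heavy V segment. The rule that chose the cells used no V segment, although Igkv14-126 was among the 6 markers named for them from earlier results of these data. Nearly all of these cells were led by 1 of 3 kappa segments: Igkv14-126 in 216 of 464 (46.6%, 41.9 to 51.2), Igkv17-127 in 154 (33.2%, 28.9 to 37.7) and Igkv17-121 in 90 (19.4%, 15.9 to 23.3). The remaining 4 cells had Igkv2-109 (2 cells), Igkv4-74 or Igkv6-20. In other B cells of the same cell set a leading kappa segment was seen in 42 of 742 (5.66%), and it was 1 of 19 different segments, most often Igkv17-127 (8 of 42). The heavy V segments were as few, with Ighv2-5 in 71 of 148 cells (48.0%), Ighv1-66 in 54 (36.5%), Ighv11-2 in 22 (14.9%) and Ighv9-3 in 1. Their order was not stable: in aliquot 2 Ighv1-66 led in 26 of 54 cells and Ighv2-5 in 19, and with 5 UMIs required Ighv2-5 led in 28.3%.

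The kappa and heavy segments went together in fixed pairs. In all 134 cells with both a leading kappa and a leading heavy segment among these 6 (97.3% to 100%), the pair was Igkv14-126 with Ighv11-2 (19 cells), Igkv17-127 with Ighv2-5 (62 cells) or Igkv17-121 with Ighv1-66 (53 cells). None of the crossed pairs occurred. With a lower minimum of 1 UMI, 354 of 355 cells held a matched pair and 1 a crossed pair. The same 3 pairs appeared in every aliquot: 6, 7 and 6 cells with the first, 26, 16 and 20 with the second, and 14, 26 and 13 with the third. The kappa shares were also similar between aliquots, at 43.4%, 47.9% and 47.8% for Igkv14-126, 37.5%, 30.2% and 32.7% for Igkv17-127, and 18.4%, 20.1% and 19.5% for Igkv17-121. The 6 segments are printed here because these pairs divide the cells into the 3 groups compared further on. Each line is the last 240 bases of the germline segment in the C57BL/6J reference (GENCODE M21, build GRCm38, sense strand, 5′ to 3′), with capitals from the codon of the conserved cysteine to the segment's end, where the junction begins. SM/J alleles and the joined junctions were not read.
Igkv14-126: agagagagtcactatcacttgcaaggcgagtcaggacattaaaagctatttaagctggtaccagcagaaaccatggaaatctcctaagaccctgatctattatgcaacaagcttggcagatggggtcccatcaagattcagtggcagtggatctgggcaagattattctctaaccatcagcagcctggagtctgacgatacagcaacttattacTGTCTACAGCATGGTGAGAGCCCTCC
Ighv11-2: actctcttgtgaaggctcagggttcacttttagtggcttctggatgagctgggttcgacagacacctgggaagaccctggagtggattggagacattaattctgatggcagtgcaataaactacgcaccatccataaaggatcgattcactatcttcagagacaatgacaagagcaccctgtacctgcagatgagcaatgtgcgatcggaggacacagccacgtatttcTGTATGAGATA
Igkv17-127: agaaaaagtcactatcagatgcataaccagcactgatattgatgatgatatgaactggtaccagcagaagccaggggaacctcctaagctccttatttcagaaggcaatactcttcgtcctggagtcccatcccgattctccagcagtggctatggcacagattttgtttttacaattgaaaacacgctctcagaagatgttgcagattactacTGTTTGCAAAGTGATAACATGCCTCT
Ighv2-5: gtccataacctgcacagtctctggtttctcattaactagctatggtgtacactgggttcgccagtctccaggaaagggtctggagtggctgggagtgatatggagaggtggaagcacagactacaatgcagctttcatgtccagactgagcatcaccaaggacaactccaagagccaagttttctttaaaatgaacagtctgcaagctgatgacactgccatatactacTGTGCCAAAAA
Igkv17-121: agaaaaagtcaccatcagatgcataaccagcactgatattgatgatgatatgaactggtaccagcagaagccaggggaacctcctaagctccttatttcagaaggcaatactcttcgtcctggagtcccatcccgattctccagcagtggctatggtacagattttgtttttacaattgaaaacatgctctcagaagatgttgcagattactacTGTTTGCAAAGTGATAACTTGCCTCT
Ighv1-66: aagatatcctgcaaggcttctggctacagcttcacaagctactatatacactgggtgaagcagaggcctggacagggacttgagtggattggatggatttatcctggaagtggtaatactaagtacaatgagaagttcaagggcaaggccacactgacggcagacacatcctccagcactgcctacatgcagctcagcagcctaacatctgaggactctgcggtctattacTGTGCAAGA

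In the annotation these are immunoglobulin V genes at chr6:67896172-67896642 on the + strand (Igkv14-126), chr6:67861153-67861659 on the + strand (Igkv17-127), chr6:68036812-68037318 on the + strand (Igkv17-121), chr12:114048241-114048812 on the - strand (Ighv11-2), chr12:113685482-113686045 on the - strand (Ighv2-5) and chr12:115593110-115593591 on the - strand (Ighv1-66). Igkv17-127 and Igkv17-121 were identical at 236 of the 240 bases shown (98.3%), so reads could be assigned to the wrong copy. Their heavy partners Ighv2-5 and Ighv1-66 were identical at 58.4% of 243 aligned columns, and in the counts only 6 of 912 cells had 1 or more UMIs of both kappa copies, and 0 had 3 or more of each. Igkv14-126 was 63.1% identical to Igkv17-127 and shared 43 of 912 cells (4.71%) with it at 1 or more UMIs each, and 2 at 3 or more of each.

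**Figure D3:**
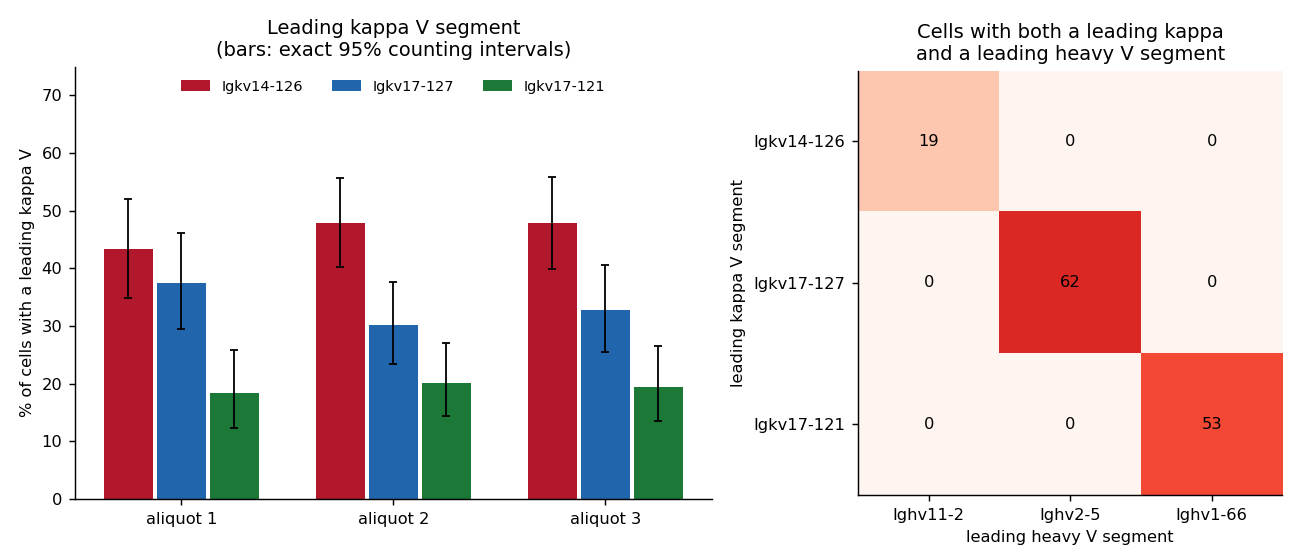
Left, percent of Zcwpw1-high SM/J cells at 20 months with each leading kappa V segment (bars) among cells that had one, by aliquot, with exact 95% counting intervals as error bars. Right, number of cells with each pair of a leading kappa (rows) and a leading heavy (columns) V segment: the 134 cells fall on 3 pairs and 0 on the other 6.

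The constant regions were mostly that of IgM. Ighm, the constant region of IgM, led in 912 of 912 cells and held 98.4% of heavy constant UMIs. Ighd, the constant region of IgD that mature naive B cells carry beside IgM, held 0.154%, against 4.23% in other B cells. Ighg3, the constant region of an IgG subclass, held 1.35% against 0.302%, and was seen in 568 of 912 Zcwpw1-high cells and 36 of 742 other B cells. Unless thinning is named, such counts of cells here and below are at full depth. That depth was greater in Zcwpw1-high cells (median 13066 against 5392 UMIs), so a gene is seen more easily in them. The kappa constant region Igkc led in 901 of 902 cells with a leading light constant region, and Iglc1 in 1. A lambda V segment led in 34 cells, 33 of them with Iglv1, and 15 of these cells were led by Igkv14-126, 15 by Igkv17-121 and 3 by Igkv17-127, so some cells held both kappa and lambda V transcripts.

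Expression was compared between Zcwpw1-high and other B cells at 20 months on summed CPM, as log2 ratios of CPM + 1. A gene is called higher or lower here when the ratio was at least 2-fold and the 3 aliquots of one group did not overlap the 3 of the other. Of 5452 genes with a mean of at least 20 CPM, 231 were higher (4.24%) and 357 lower (6.55%), with a median ratio over all genes of -0.05. Scaling by trimmed means (TMM) moved the median of all genes to 0.14 and gave 368 higher and 251 lower genes, so the balance of the 2 directions rests on the scaling, and the ratios below are from CPM. Of 78 genes called and named by the rule for names, none changed direction and 67 kept their call in every setting tried in which they were measured; at a minimum of 100 CPM only 48 of the 118 genes under that rule were. Over all called genes at most 1 of the 231 higher and 10 of the 357 lower ones changed direction in a setting. The 10 did so without cells that held a UMI of Cd3e, Lyz2 or Nkg7, where 270 of the 357 lower calls were kept (75.6%). The calls lost in at least 1 setting were those of Birc3, C1qa, Ciita, Dok3, Fras1, H2-DMb2, Ier2, Lyz2, Pdcd1lg2, Pik3r4 and Spib.

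The 6 markers named for the cells all stood far above other B cells, and these values belong to the choice of the cells. Zcwpw1 was at 1511, 1569 and 1581 CPM in the 3 aliquots of Zcwpw1-high cells and at 35.3, 30.7 and 37.5 CPM in those of other B cells. Gnb3 was at 213, 216 and 243 CPM against 10.4, 7.97 and 4.55. Rdh12 was at 465, 445 and 467 CPM against 102, 70.6 and 80.2. The aliquots of Zcwpw1-high cells agreed closely, those of other B cells spread more for Gnb3, and the gap between the groups was wide. Meis1 stood at 183, 178 and 208 CPM against 14.4, 6.83 and 26.7 (log2 ratio 3.47), and Krt18 at 132, 123 and 122 CPM against 20.0, 11.4 and 7.39 (3.26). These genes were seen in most of the cells, Gnb3 in 85.3%, Rdh12 in 91.1%, Meis1 in 74.5% and Krt18 in 70.5%, against 2.83%, 26.7%, 6.47% and 3.23% of other B cells. The shares of cells were not thinned, and Zcwpw1-high cells were the deeper ones.

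Related genes were examined beside them. Among 4 measured vision and retinoid genes Gnb3 and Rdh12 were higher, while Rara, a retinoic acid receptor, and Gngt2, a G protein gamma subunit, were not called (log2 ratios -0.93 and -0.19). The other measured beta subunits, Gnb1 and Gnb2, differed by -0.07 and 0.32. Of the meiotic and histone reader genes only Zcwpw1 and Morc3 had enough counts, and Morc3 had a ratio of -0.98 and was not called. Krt18 was the only higher one of 4 measured intermediate filament genes, with vimentin (Vim) at 0.53 and the lamins Lmna and Lmnb1 at 0.34 and 0.49. Of 2 measured Meis and Hox related genes, Meis1 was higher and Pbx3, which encodes a partner of Meis proteins, was lower at 21.4 against 74.5 CPM.

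The genes next to Zcwpw1 on the chromosome showed no such gap. Zcwpw1 lies at chr5:137787798-137822621 on the + strand. Tsc22d4, the neighbour with enough counts, was at 208 CPM against 151 (log2 ratio 0.46, not called). Mepce, Ppp1r35 and Pilra were below the level minimum at 21.1, 15.3 and 9.99 CPM against 18.1, 14.9 and 5.46. Within the 912 cells, thinned to 2000 UMIs, no gene tracked Zcwpw1 closely: the highest rank correlations were those of Iglc2 (0.19), Cd79a (0.17) and Igkc (0.17), the lowest that of Ptma (-0.16). These correlations are descriptions over cells that share a library. The cells were all chosen for a high Zcwpw1 count, and thinning left few UMIs of most genes. Both hold such correlations near 0, so they cannot show whether a gene goes with Zcwpw1.

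Other genes with a large gap were spread over unrelated functions. Adgrl2, an adhesion G protein-coupled receptor, was at 210, 224 and 210 CPM against 11.2, 7.97 and 13.1 (log2 ratio 4.21). Stxbp6, a syntaxin-binding protein, was at 491, 495 and 472 CPM against 33.7, 32.4 and 60.3 (3.47), and it was seen in 96.9% of Zcwpw1-high cells and 7.82% of other B cells. Neither gene's aliquots came near those of the other group. Itga8 (integrin alpha 8) had a ratio of 4.09, Dusp14 (a dual-specificity phosphatase) 3.81, Serpinb6b (a serine protease inhibitor) 4.07 and Syn3 (synapsin III) 3.33. Cyp11a1, the enzyme that starts steroid hormone synthesis from cholesterol, was at 62.2 against 3.36 CPM and was seen in 31.1% of the cells. Ctla4, the inhibitory receptor that B-1 cells can also carry, was at 343, 364 and 343 CPM against 119, 74.6 and 79.6.

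**Figure D4:**
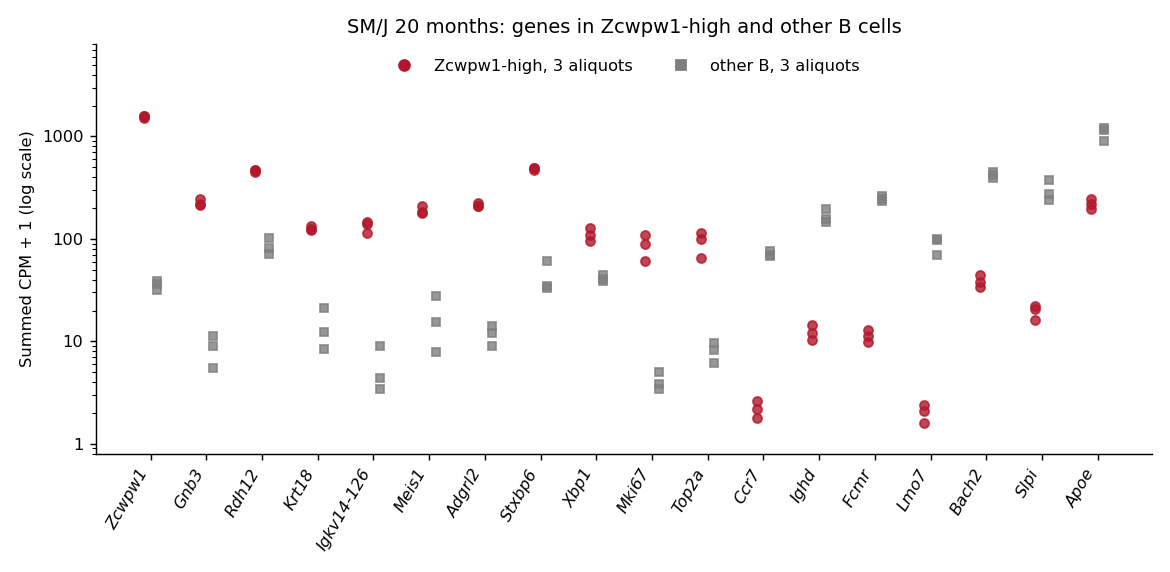
Summed CPM + 1 (log axis) of 18 genes in the 3 aliquots of Zcwpw1-high cells (red circles) and of other B cells (grey squares) of SM/J at 20 months. Genes from Zcwpw1 to Top2a are higher and those from Ccr7 to Apoe lower in Zcwpw1-high cells; the aliquots of the 2 groups do not overlap for any of them.

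Genes of recirculating naive B cells were low. Of 8 measured follicular and naive B cell genes 0 were higher and 5 lower, against 4.24% and 6.55% of all genes. The list median was -1.81 against -0.05 for all genes. Ccr7, the receptor that draws lymphocytes into lymph nodes, was at 1.21, 1.60 and 0.799 CPM against 67.3, 75.1 and 69.4. Ighd was at 13.5, 11.2 and 9.39 CPM against 146, 196 and 154, and Cd55, a regulator of complement, at 30.8 against 168 CPM. Btla, an inhibitory receptor, was at 67.4 against 157 CPM. These 4 genes had no overlap between aliquots. Foxp1, Klf2 and Cxcr5 of the same list were not called (log2 ratios -0.31, -0.11 and -0.14).

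Homing receptors were examined as a second list. Of 11 measured chemokine and egress receptors 6 were lower and 1 higher, with a median of -1.09. Over all genes 6.55% were lower and 4.24% higher, with a median of -0.05. Besides Ccr7 the lower ones included Cxcr4, the receptor for CXCL12, at 5.76 against 42.4 CPM, Cnr2, a cannabinoid receptor, at 6.53 against 33.6, S1pr1, the egress receptor for sphingosine phosphate, at 115 against 246, and Itga4 at 120 against 266 CPM. The higher one was Itgb7, an integrin chain that pairs with Itga4, at 203 against 87.1 CPM. Of 5 measured marginal zone B cell genes 1 was higher and 1 lower, with a median of -0.24. S1pr3, a sphingosine phosphate receptor, was at 42.7 against 6.09 CPM and Pik3r4, a subunit of a lipid kinase, at 13.8 against 35.9 CPM (not called with 10 CPM added).

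Of 10 measured B cell identity genes 0 were higher and 3 lower, against 6.55% lower over all genes, with a median of -0.24: Fcmr, the receptor for IgM, at 11.9, 10.3 and 8.79 CPM against 259, 232 and 242, Pax5, the transcription factor that holds B cell identity, at 146 against 342 CPM, and Spib at 26.4 against 57.5 CPM. Fcmr stood apart from the other B cell genes by its size, with a ratio of -4.43 against -1.22 for Pax5. Ebf1 (789 against 1423 CPM, -0.85), Cd79b (0.61) and Ms4a1 (0.09) were not called. Bach2, a repressor that keeps B cells from becoming plasma cells, was lower at 37.2, 43.5 and 32.6 CPM against 396, 450 and 421.

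Of 7 measured B-1 cell genes 1 was higher (Ctla4) and 1 lower (Cd9, a tetraspanin, 37.9 against 130 CPM), with a median of 0.44. Among all genes 4.24% were higher and 6.55% lower. Bhlhe41, a transcription factor of B-1 cells, was at 118 against 60.5 CPM (0.95) and Zbtb32 at 85.0 against 58.6 (0.53), and neither was called. Plac8 of the marginal zone list was at 1552 against 859 CPM (0.85) and was not called. Of 8 measured age-associated B cell genes 2 were higher and 2 lower. Itgb1 (integrin beta 1) was at 568 against 229 CPM and Pdcd1lg2 (a ligand of the inhibitory receptor PD-1) at 84.1 against 37.6, while Nt5e, which encodes the ectoenzyme CD73, was at 1.79 against 40.3 CPM and Apoe at 220 against 1083.

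Part of the plasma cell programme was higher. Of 6 measured plasma cell genes 3 were higher and 1 lower, against 4.24% and 6.55% of all genes. Prdm1, the transcription factor that drives plasma cell fate, was at 58.5, 68.7 and 60.3 CPM against 19.2, 23.3 and 13.6, Xbp1, a regulator of secretion, at 94.0, 109 and 126 CPM against 39.3, 43.8 and 37.5, and Mzb1, a chaperone for IgM, at 1344, 1453 and 1503 CPM against 638, 423 and 446. Each of these 3 was higher in every aliquot. Slpi, a secreted protease inhibitor, was the lower one at 18.8 against 303 CPM. Jchain, which links secreted IgM, was at 335 against 288 CPM with overlapping aliquots (244, 369 and 388 against 121, 263 and 433). Ighm was at 7265 against 3733 CPM (0.96) and was not called. Of 15 measured genes of secretion and the unfolded protein response 1 was higher, Creld2 at 93.9 against 25.2 CPM, and 0 were lower; Manf, Pdia4 and Ssr4 had ratios of 0.94, 0.92 and 0.83, which became calls (1.17, 1.34 and 1.15) without cells that held a UMI of Cd3e, Lyz2 or Nkg7.

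Several genes of dividing cells were higher. Of 9 measured proliferation genes 4 were higher and 1 lower, against 4.24% and 6.55% of all genes. Mki67, a protein of dividing nuclei, was at 109, 59.5 and 88.3 CPM against 2.41, 2.85 and 3.98, and Top2a, the topoisomerase of replicated chromosomes, at 113, 64.5 and 97.9 CPM against 7.22, 8.54 and 5.12. Stmn1 and Tubb5, which act on microtubules, were at 46.4 and 442 CPM against 5.67 and 155. Ccnd3, a G1 cyclin, was lower at 168 against 403 CPM. Mki67 was seen in 15.7%, Top2a in 14.6% and Stmn1 in 10.9% of Zcwpw1-high cells, and Tubb5 in 89.4%, against 48.9% of other B cells. After thinning to 2000 UMIs, 10.5% of them (96 of 912, 8.61% to 12.7%) had a UMI of any of 8 cell cycle genes, against 3.02% of other B cells (22 of 729, 1.90% to 4.53%) and 4.17% of the Zcwpw1-high cells at 12 months (1 of 24).

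B cell receptor signalling genes were called about as often as genes overall (4.24% higher and 6.55% lower). Of 20 measured B cell receptor signalling genes 1 was higher, the adaptor Dok3 at 155 against 65.7 CPM, and 1 lower, the inhibitory Fc receptor Fcgr2b at 15.2 against 45.6 CPM. Of 9 measured Bcl2 family genes, which set cell survival and death, 0 were called in either direction, with ratios from -0.75 (Bcl2l11) to 0.93 (Bad). Cd40 was the lower 1 of 3 measured TNF receptor family genes, at 11.8 against 34.8 CPM, while Tnfrsf13c, the BAFF receptor, had a ratio of 0.81 and was not called. Of 11 measured immediate early genes 3 were higher and 1 lower. Egr1 was at 427, 388 and 351 CPM against 83.4, 107 and 109, Egr3 at 41.1 against 8.61, Ier2 at 414 against 188, and the phosphatase Dusp1 at 58.8 against 272 CPM. Of 11 measured antigen presentation genes of MHC class II 4 were lower and 0 higher, among them H2-Oa at 8.20 against 49.1 CPM and H2-Ob at 50.8 against 138, the chains of a protein that restrains peptide loading, and Ciita, the activator of the class, at 30.3 against 67.4 CPM. Of 11 measured genes of B cell tumours 2 were lower, Notch2 at 37.8 against 107 CPM and Birc3 at 99.0 against 208 (not called without aliquot 2, -0.98, with TMM scaling or a Zcwpw1 minimum of 10 UMIs, both -0.88, or with a mitochondrial limit of 5%), and 0 were higher. Of 2 measured interferon response genes 0 were called in either direction.

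The lowest ratios belonged to genes of varied function. Lmo7, an actin-associated protein, was at 1.41, 1.07 and 0.599 CPM against 68.1, 99.0 and 97.2 (log2 ratio -5.49), Emb (embigin) at 3.01 against 149 (-5.23) and Lrrk2, a kinase, at 1.92 against 92.0 (-4.99). Each was seen in under 3.10% of Zcwpw1-high cells and in 22.6% (Lmo7) to 42.3% (Emb) of other B cells. Both groups carried RNA of other blood cells, and macrophage and erythroid markers stood higher in other B cells. The 8 macrophage markers summed to 134 CPM in Zcwpw1-high cells (120 to 146 over aliquots) and 1027 in other B cells (782 to 1285), with 0 of 8 at 0 in either, and 6 of 6 measured ones were lower, such as C1qa at 22.7 against 220 CPM. The erythroid markers summed to 202 and 1648 CPM, and 0 of 3 measured ones were called, with 1 aliquot of the other B cells far above the rest (Hbb-bs at 34.5, 37.6 and 1999 CPM). The part of such RNA in the lower genes was not tested. Without cells that held a UMI of Cd3e, Lyz2 or Nkg7 the ratio of C1qa was -0.78 and no longer a call. Those of Ccr7 (-5.78), Ighd (-4.05), Fcmr (-4.26), Bach2 (-3.44) and Lmo7 (-5.45) were still calls.

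The groups defined by the kappa segment differed in a number of genes. Zcwpw1, which chose the cells of every group, was at 1463, 1670 and 1671 CPM in the aliquots of the 216 Igkv14-126 cells, at 1394, 1291 and 1504 in the 154 Igkv17-127 cells, and at 1694, 1744 and 1622 in the 90 Igkv17-121 cells, with the second group's aliquots below those of the third. Gnb3 (175, 259 and 268 CPM in the 3 groups, in the same order), Adgrl2 (227, 173 and 260) and Stxbp6 (461, 399 and 680) were likewise well above other B cells in each group. Median depth was 14086, 11929 and 30976 UMIs, and after thinning to 2000 UMIs the medians were 924, 923 and 953 genes, so the Igkv17-121 cells were the deepest by far. The part of depth in the differences was not tested. Scrublet marked 2, 0 and 0 cells, and the leading tag held 83.1%, 81.6% and 87.5% of tag UMIs.

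A gene was called for a group when it was at least 2-fold from both other groups and its 3 aliquots lay outside the range of theirs, among 5316 genes. The counts include immunoglobulin segments, among them the kappa segment that defined each group, which had to differ. The Igkv14-126 cells had 28 higher genes (0.527%; 26 without immunoglobulin genes) and 24 lower (0.451%). Mt1 and Mt2, the metallothioneins, were at 505 and 50.5 CPM there, against 61.2 and 6.47 in Igkv17-127 cells and 86.4 and 6.57 in Igkv17-121 cells. Egr1, an early gene of receptor signalling, was at 707, 686 and 615 CPM against 25.9, 92.0 and 65.6 and against 206, 143 and 112. Ier2 was at 648 against 127 and 230 CPM, and the phosphatases Dusp2 and Dusp5 were at 78.2 and 101 CPM against 13.4 and 14.9 and against 12.1 and 28.5. Other B cells were at 75.4 CPM of Dusp2 and 29.8 of Dusp5. For Dusp2 the Igkv14-126 cells were thus near other B cells, and both other groups were below them. Of 10 immediate early genes measured here, 4 were called higher in Igkv14-126 cells and 0 lower, and 7 were above both other groups, against 1649 of all 5316 genes. The higher Egr1 of all Zcwpw1-high cells over other B cells (102 CPM) was not seen in Igkv17-127 cells. Isg15, an interferon-induced protein, was at 67.0 against 10.9 and 11.6 CPM, and Tex14, a germ cell protein, at 217 against 44.3 and 26.0. Tox3, a nuclear protein, had 0 UMIs in the Igkv14-126 cells, where 3 UMIs would be 0.856 CPM, and stood at 64.7 and 51.3 CPM in the other groups.

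The Igkv17-127 cells had 37 higher genes (0.696%; 35 without immunoglobulin genes) and 34 lower (0.640%). Dgkb, a diacylglycerol kinase, had 171 UMIs (85.0 CPM; 103, 99.7 and 54.2 in the aliquots), against 0 UMIs in Igkv14-126 and 2 in Igkv17-121 cells. Robo1, an axon guidance receptor, was at 59.7 CPM against 2.00 and 0.505, Gstt1, a glutathione transferase, at 161 against 22.0 and 13.4, and Rarb, a retinoic acid receptor, at 134 against 29.1 and 6.06 CPM. These genes marked the group in each aliquot. Krt18 was also highest there, at 250, 259 and 282 CPM, against 88.1 CPM in Igkv14-126 and 61.4 in Igkv17-121 cells. Smim40, with 1 UMI, and Sfn and Trio, at 1.49 and 1.99 CPM, were almost without counts, and Cyp11a1 was at 9.45 CPM against 44.8 and 149.

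The Igkv17-121 cells had 19 higher genes (0.357%; 16 without immunoglobulin genes) and 50 lower (0.941%; 49 without them). Fras1, an extracellular matrix protein, was at 713, 500 and 561 CPM against 81.6 in Igkv14-126 and 39.3 in Igkv17-127 cells. Other B cells were at 86.7 CPM and all Zcwpw1-high cells at 193, so the other 2 groups were not above other B cells. The call of Fras1 for all Zcwpw1-high cells was lost when each cell was thinned to 2000 UMIs (0.23), without cells that held a UMI of Cd3e, Lyz2 or Nkg7 (0.53) and without aliquot 1 (0.99). Kcnq5, a potassium channel, was at 121 CPM against 13.4 and 7.96, and Ccdc141 at 143 against 14.8 and 19.9. Other B cells were at 234 CPM of Kcnq5, above all 3 groups, and at 1.89 of Ccdc141. Meis1 was low in this group, at 69.3, 43.7 and 59.5 CPM, against 219 and 315 CPM in the other groups and 16.2 in other B cells. Atrnl1 (1.52 CPM), Klk4 (0.758), App (3.79) and Bcl11a (5.56), a B cell transcription factor, were also lower. Cdk8, a kinase of the Mediator complex, was at 275 CPM there, at 1040 and 1375 CPM in the other groups and at 2937 in other B cells. Gm42418, a transcript that overlaps ribosomal RNA sequence, was at 5957 CPM against 17976 and 22522, with 39540 in other B cells. AY036118, Cmss1, Lars2 and Camk1d were lower in the same order of groups, and the part of such RNA in these values was not tested. Cell cycle transcripts were found, after thinning, in 14.4% of Igkv14-126 (9.96 to 19.7), 11.0% of Igkv17-127 (6.56 to 17.1) and 21.1% of Igkv17-121 cells (13.2 to 31.0), with overlapping intervals. In the 448 cells without a leading kappa V segment (median 12318 UMIs) the share was 6.47% (4.38 to 9.16). These intervals count cells of 1 library, and the differences were not tested. Without thinning the same genes summed to 840, 219 and 357 CPM in the aliquots of Igkv14-126 cells and 196, 544 and 69.8 in Igkv17-127 cells. They summed to 361, 229 and 731 CPM in Igkv17-121 cells and 166, 107 and 109 in cells without a leading segment.

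The groups also differed by chromosome. For each chromosome the median log2 ratio of its measured genes was taken, centred on the median of all genes. Over other B cells of 20 months, Zcwpw1-high cells had medians of 0.28 on chromosome 15 and 0.43 on chromosome 17, against -0.06 on chromosome 18 and -0.17 to 0.07 on 17 other chromosomes. The chromosome 15 median was 0.40 in Igkv14-126 cells, 0.38 in Igkv17-127 cells and -0.07 in Igkv17-121 cells. Chromosome 17 stood at 0.38, 0.45 and 0.51, and chromosome 18 at -0.17, 0.26 and -0.18, in the same order. Set directly against each other, which needs no other B cells, Igkv17-121 cells were lower than Igkv14-126 cells on chromosome 15 by a median of -0.51 (-0.53, -0.46 and -0.50 in the aliquots), with 5.22% of 230 genes above 0. Igkv17-127 cells were higher than Igkv14-126 cells on chromosome 18 by 0.50 (0.47, 0.44 and 0.52), with 94.2% of 154 genes above 0. Nearly all genes of these chromosomes shifted together, while the 17 other chromosomes lay between -0.18 and 0.07 and between -0.14 and 0.07.

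**Figure D5:**
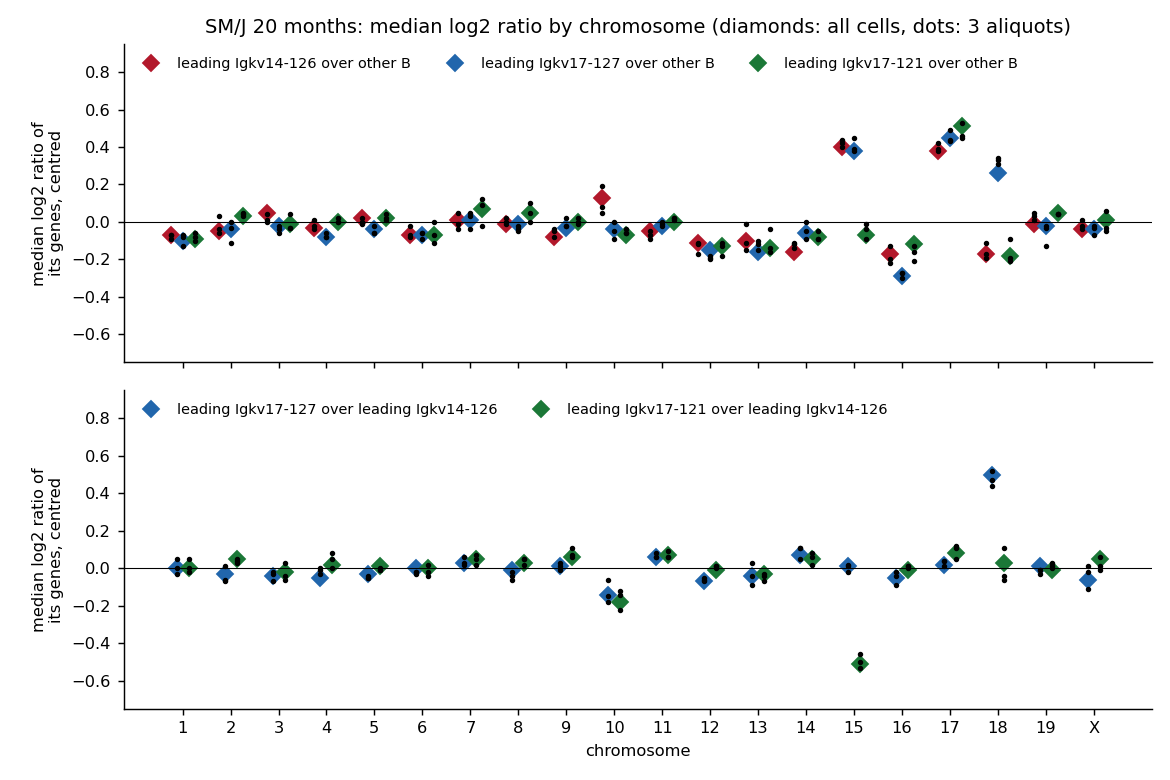
Median log2 ratio of the genes of each chromosome (horizontal axis), centred on all genes, for the 3 groups by leading kappa V segment over other B cells (top) and between groups (bottom), SM/J at 20 months. Diamonds are all cells and dots the 3 aliquots; chromosome 15 is at -0.51 for Igkv17-121 over Igkv14-126 and chromosome 18 at 0.50 for Igkv17-127 over Igkv14-126.

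Shares of UMIs by chromosome were also taken in single cells. The median share of UMIs on chromosome 15, over the genes measured, was 5.33% in Igkv14-126 cells, 5.47% in Igkv17-127 cells and 4.00% in Igkv17-121 cells, with 3.66% in other B cells, so the share in Igkv17-121 cells was above that of other B cells where the median ratio was -0.07. On chromosome 18 it was 2.78%, 3.92% and 2.67%, with 2.90% in other B cells; for Igkv17-121 against Igkv14-126 cells, where the median ratio was 0.03, the share was the lower one. The middle 50% of cells on chromosome 18 ran from 3.58% to 4.16% in Igkv17-127 cells and from 2.57% to 3.01% in Igkv14-126 cells, and so did not overlap. On chromosome 17 the share was 9.21% in all Zcwpw1-high cells (9.01%, 9.45% and 8.32% in the 3 groups) and 10.2% in other B cells, lower where the median ratio of its genes was higher. A share follows the genes with most UMIs, while the median counts each gene alike. The median ratio of chromosome 17 also depended on the comparator: over other B cells of SM/J at 12 months it was 0.25, and that of chromosome 15 was 0.44. Other B cells themselves differed between 20 and 12 months by 0.16 on chromosome 15 and -0.19 on chromosome 17. DNA copy number was not measured.

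Cells meeting the rule at 12 months shared part of this profile. The 24 SM/J cells of 12 months had Zcwpw1 at 1000 CPM, Gnb3 at 164 and Krt18 at 146 CPM, against 15.1, 4.53 and 10.5 in other B cells of that cell set. Zcwpw1 chose these cells. Gnb3 rested on 55 UMIs (39.3, 225 and 173 CPM in the aliquots) and Krt18 on 49 (105, 225 and 82.4 CPM), and in aliquot 1 a single UMI was worth 13.1 CPM. Of the 231 genes higher at 20 months 186 were measured there, and 111 (59.7%) were past 2-fold in the same direction, against 4.02% of the 5044 genes measured in both. Of the 357 lower genes 95 of 316 were (30.1%), against 5.87%. In the 48 BL/6 cells of 12 months 77 of 149 higher genes (51.7%, against 4.18% of 4884) and 156 of 308 lower ones (50.6%, against 10.4%) did so. Zcwpw1, itself 1 of the higher genes, chose the cells in each cell set. Measured genes had a mean of at least 20 CPM over both groups there. A gene low in other B cells was thus counted mainly where the chosen cells carried it. Higher genes that did not carry over could leave the count, which can raise the shares of 59.7% and 51.7%. These shares describe likeness and were not tested. Of genes with a wide gap at 20 months, Mki67 was at 8.93 CPM in the 12-month SM/J cells against 10.5 in other B cells of that age (log2 ratio -0.21), Ccr7 at 32.8 against 97.1 (-1.54) and Bach2 at 345 against 608 CPM (-0.81). The values of the 24 cells rest on 3, 11 and 116 UMIs, so that of Mki67 is near the floor.

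Receptors were read in few of these cells. Among 8 of the 24 SM/J cells of 12 months with a leading kappa V segment, Igkv14-126 led in 4, Igkv2-109 in 2, and Igkv17-127 and Igkv1-117 in 1 each. Igkv14-126 had 27 of their 78 kappa V UMIs and Ighv11-2 had 6 of 15 heavy V UMIs. Igkv17-127 had 8 of 78 UMIs (10.3%, 4.53 to 19.2), against 23.7% at 20 months, and Igkv17-121 had 0 of 78 (up to 4.62%), against 22.1%. Ighv2-5 and Ighv1-66 each had 0 of 15 heavy V UMIs (up to 21.8%), against 35.2% and 30.8% at 20 months. These limits cover counting error only and treat UMIs as independent, while the UMIs of a V segment gather in few cells. At 20 months Igkv17-121 was seen in 115, Ighv2-5 in 181 and Ighv1-66 in 89 of 912 cells. At 12 months each was seen in 0 of 24 cells. So few cells cannot tell whether these 3 segments were rarer at 12 months, which was not tested. In BL/6 at 12 months Igkv14-126 led in 9 of 10 cells and had 77 of 122 kappa V UMIs, and Ighv11-2 had 21 of 25 heavy V UMIs. The 8 BL/6 cells of 20 months had 53 UMIs of Zcwpw1, 3 of Gnb3, 5 of Rdh12 and 0 of Krt18 and Meis1. Igkv8-30 had 21 of their 37 kappa V UMIs, all in 1 cell, and Igkv14-126 had 11 in 5 cells, while Igha, the constant region of IgA, had 253 of 499 heavy constant UMIs, found in 3 cells. The tags of the 24 SM/J cells were mostly those of their own age: a median of 20.9% of their tag UMIs were of 20-month tags, against 30.9% in other B cells of 12 months. In 7 of the 24 cells it was over 30%, with a highest value of 53.8%, against 686 of 1278 other B cells and 64.8%. Over other B cells of their cell set the 24 SM/J cells had chromosome medians of 0.36 on chromosome 15 (0.18, 0.47 and 0.27 in the aliquots) and 0.02 on chromosome 17, and the BL/6 cells of 12 months 0.03 and 0.08.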

How the data were processed

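Blood mononuclear cells of 2 strains at 2 ages were profiled in 2 multiplexed 10x runs, 1 per strain, and deposited as 4 cell sets by tag. Per gene and cell, the deposited files give unscaled UMI counts that the authors made with Cell Ranger 7.0.1 per the file headers; mm10 and Seurat 4.3.0 are named in the submitters' processing notes. No scaling had been applied to the deposited counts, and cells had been assigned to ages from their tags before deposit. SM/J reads were counted on a reference of another strain, which can lose or move reads between similar genes such as V segments.

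Cells with at least 500 gene UMIs, 200 genes and at most 10% mitochondrial UMIs were kept. Groups were formed from counts as stated in the report, and cell sets from the labels. The chosen cells, their markers and the gene lists were picked with earlier results of these data known. UMIs were summed per group and aliquot, scaled to CPM, and compared as log2 ratios with 1 CPM added, for genes with a mean of at least 20 CPM. With 1 cell set per strain and age no test was run. Shares have exact 95% Clopper-Pearson intervals, which cover counting error only. Cell sets held 14250603 to 30627357 gene UMIs before cell filtering. Cells were thinned to 2000 UMIs with seed 1. Scrublet (scanpy 1.11.5, expected doublet rate 6%, seed 0) was applied to each run, and the droplets it called were kept. Named genes are the 6 markers, the 15 highest and 15 lowest ratios among genes with separate aliquots seen in 25% of cells of the higher group (without Zcwpw1, Cd79a, Cd3e, mitochondrial, ribosomal protein and immunoglobulin genes), up to 4 per list, 5 neighbours on each side of Zcwpw1, and the 10 genes at each end of its correlation. Gene positions and V segments came from GENCODE M21 (GRCm38), in which 99.6% of the 32285 gene identifiers were found. Alternatives covered the rule, filters, pseudocount, scaling (edgeR 4.0.16 for TMM), doublets and aliquots. The chromosome medians, the pairing of V segments and the genes of the V segment groups were added after the data had been seen. The comparison was checked on simulated counts with 200 changed genes. Software was Python 3.11.15, NumPy 2.4.6, SciPy 1.17.1, pandas 2.3.3, Biopython 1.88 and matplotlib 3.10.9. Some genes within the lists are not reported here; the list counts and medians include them.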

Additional observations from a re-analysis of the deposited data

Results flagged for a closer look

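The share of Zcwpw1-high cells among B cells moved in opposite directions with age in the 2 strains. It was 53.3 percentage points higher at 20 than at 12 months in SM/J and changed by -1.65 percentage points in BL/6. In each strain the aliquots of the 2 ages did not overlap, which was the condition for listing this result and adds no support. The BL/6 aliquots of 20 months held 3, 1 and 4 Zcwpw1-high cells, and their counting intervals overlapped those of 12 months. Each change compares cells of 2 ages that shared 1 multiplexed library and were told apart by tags. The difference between the strains was not tested.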

How the results depend on the processing

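The share of Zcwpw1-high cells among SM/J B cells at 20 months was 48.7% with a Zcwpw1 minimum of 10 UMIs, 37.8% with a mitochondrial limit of 5%, 52.4% with Cd79a of 1 and Cd3e of 0 in both groups, 43.3% without cells holding Cd3e, Lyz2 or Nkg7 UMIs and 52.3% after thinning. At 12 months the last 2 settings gave 1.18% and 3.64%. Leaving out each aliquot gave 53.2% to 56.6% at 20 months and 1.63% to 1.96% at 12 months. The counts of higher and lower genes followed the level minimum, since fewer or more genes are measured: 503 and 800 at 5 CPM, 74 and 79 at 100 CPM, against 231 and 357 at 20 CPM. TMM scaling gave 368 higher genes. Leaving out each aliquot gave 236 to 255 higher and 341 to 395 lower genes.

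Igkv14-126 led 38.7% of cells with a leading kappa V segment when 5 UMIs were required, and Ighv2-5 led 38.5%, 28.3% and 64.3% of those with a leading heavy V segment at 1 UMI, at 5 UMIs and at over 90% of the class; the cause was not tested. Median genes per cell fell to 918 and 550 in Zcwpw1-high cells and to 928 and 555 in other B cells at 2000 and 1000 UMIs, by construction. The medians of Zcwpw1-high over other B cells on chromosomes 15 and 17 were 0.44 and 0.25 against other B cells of 12 months, 0.33 and 0.46 without cells holding Cd3e, Lyz2 or Nkg7 UMIs, and chromosome 17 was at 0.29 for genes of 100 CPM; the cause was not tested. Leaving out an aliquot gave 0.27 to 0.29 and 0.44 to 0.46. At 100 CPM chromosome 15 was at -0.43 for Igkv17-121 over Igkv14-126 cells and chromosome 18 at 0.46 for Igkv17-127 over Igkv14-126 cells. Without each aliquot these were -0.53 to -0.48 and 0.46 to 0.49. A leading kappa V segment was not called in 448 of 912 cells. No paired analysis between ages or strains was possible because each strain and age has 1 cell set. Each aliquot held Zcwpw1-high and other B cells, but the calls did not pair them by aliquot.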

Other observations

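A few SM/J cells of 20 months carried the same leading kappa V segments and did not meet the rule. They were 7 cells with Igkv14-126, of which 6 held a Cd3e UMI, 9 with Igkv17-127, all below 5 Zcwpw1 UMIs, and 3 with Igkv17-121, of which 2 held a Cd3e UMI. One of the 9 was rich in transcripts of antibody secretion and was picked out after its values were seen. It had 21414 UMIs, among them 102 of Jchain, 12 of Xbp1 and 6066 of Igkc, with 4 of Zcwpw1 and 2 of Gnb3. Igkv17-127 held 86 of its 91 kappa V UMIs and Ighv2-5 84 of its 84 heavy V UMIs, which is 1 of the 3 pairs found in Zcwpw1-high cells, and Ighm was its leading heavy constant region. This cell held most of the 102 Ighv2-5 UMIs counted in all other B cells of that cell set.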
